A study of Mus musculus with 5 samples.

Results

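Complement is a set of plasma and cell-surface proteins that mark particles and damaged cells for uptake, attract leukocytes and perforate membranes. The transcripts of 34 mouse genes for complement components, receptors and inhibitors were followed here. They were chosen by name, from a list of the pathway's members, and all 34 were found, at 32 of the 24768 loci in the expression table (23141 of these loci carry a gene name). RNA was sequenced from 3 eye tumor libraries and from 2 libraries of wild-type uveal tissue, all of adult mice. The tumors arose in mice with floxed Lats1 and Lats2 alleles (Lats1/2 fl/fl) given Cre recombinase by an adeno-associated virus (AAV5-Cre), and the comparison mice were wild type, with no virus or floxed allele named in their labels. Lats1 and Lats2 are the kinases of the Hippo pathway that hold the co-activators YAP and TAZ in check. The labels do not say which cells of the eye the virus reached, nor whether each library is a separate animal. The p-values therefore speak only to the variation among these 5 libraries, which may be technical.

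The classical route starts when C1q, with its proteases C1r and C1s, binds antibody or a cell surface. The lectin route starts when collectins or ficolins bind sugars and engage the MASP proteases, and the alternative route is a loop that amplifies C3 cleavage. All routes meet at C3, go on to C5 and the membrane attack complex, and are held back by soluble and membrane-bound inhibitors. In the eye, complement is best known from the retinal pigment epithelium and choroid, where it has been tied to age-related macular degeneration.

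Components of the early cascade, C3 and the receptors rose in the tumors, while the most abundant inhibitor transcript of wild-type uvea, Clu, stood far lower there without passing the test. Of the 32 loci, 28 had enough fragments to be tested, 13 rose and 1 fell (edgeR quasi-likelihood test, Benjamini-Hochberg adjusted p under 0.05 over all 15241 tested loci). The 13 risers were 46.4% of the tested member loci, against 18.7% of all tested loci that rose, and the 1 faller was 3.57%, against 15.4% of all tested loci that fell. The median log2 fold change was 1.74 over the 28 loci and 0.05 over all tested loci. The risers include the joint locus of Colec11 and Rps7, a ribosomal protein gene, where the share of each gene cannot be given. All 13 risers had every tumor library above both wild-type libraries. This also held for 9 of the 14 tested loci that did not pass, while 3 of those 14 had every tumor library below both wild-type libraries and 2 overlapped. Over all tested loci, 33.7% had every tumor library above and 35.9% every tumor library below. A second count test, DESeq2, called 20 of the 32 member loci higher and 3 lower. Of all 16797 loci with a DESeq2 adjusted p, it called 21.9% higher and 19.4% lower.

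The make-up of the complement RNA differed between the groups more than its share of the libraries did. The member loci held 0.734%, 0.818% and 1.05% of the named fragments in tumor libraries 1, 2 and 3, against 0.742% and 0.733% in wild-type libraries 1 and 2. That share includes the joint locus of Colec11 and the ribosomal protein gene Rps7. This locus had 15330, 9819 and 17442 fragments in the tumor libraries, against 5628 and 4169 in the wild-type libraries. The loci of the C1q chains alone held 0.360%, 0.272% and 0.536% in the tumor libraries, against 0.0335% and 0.0295% in the wild-type libraries. Clu held 0.0194%, 0.132% and 0.0139% in the tumor libraries, against 0.562% in each wild-type library. Clu thus made up most of the complement RNA of wild-type uvea, while in the tumors the C1q loci held more than Clu did in every library.

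**Figure D1:**
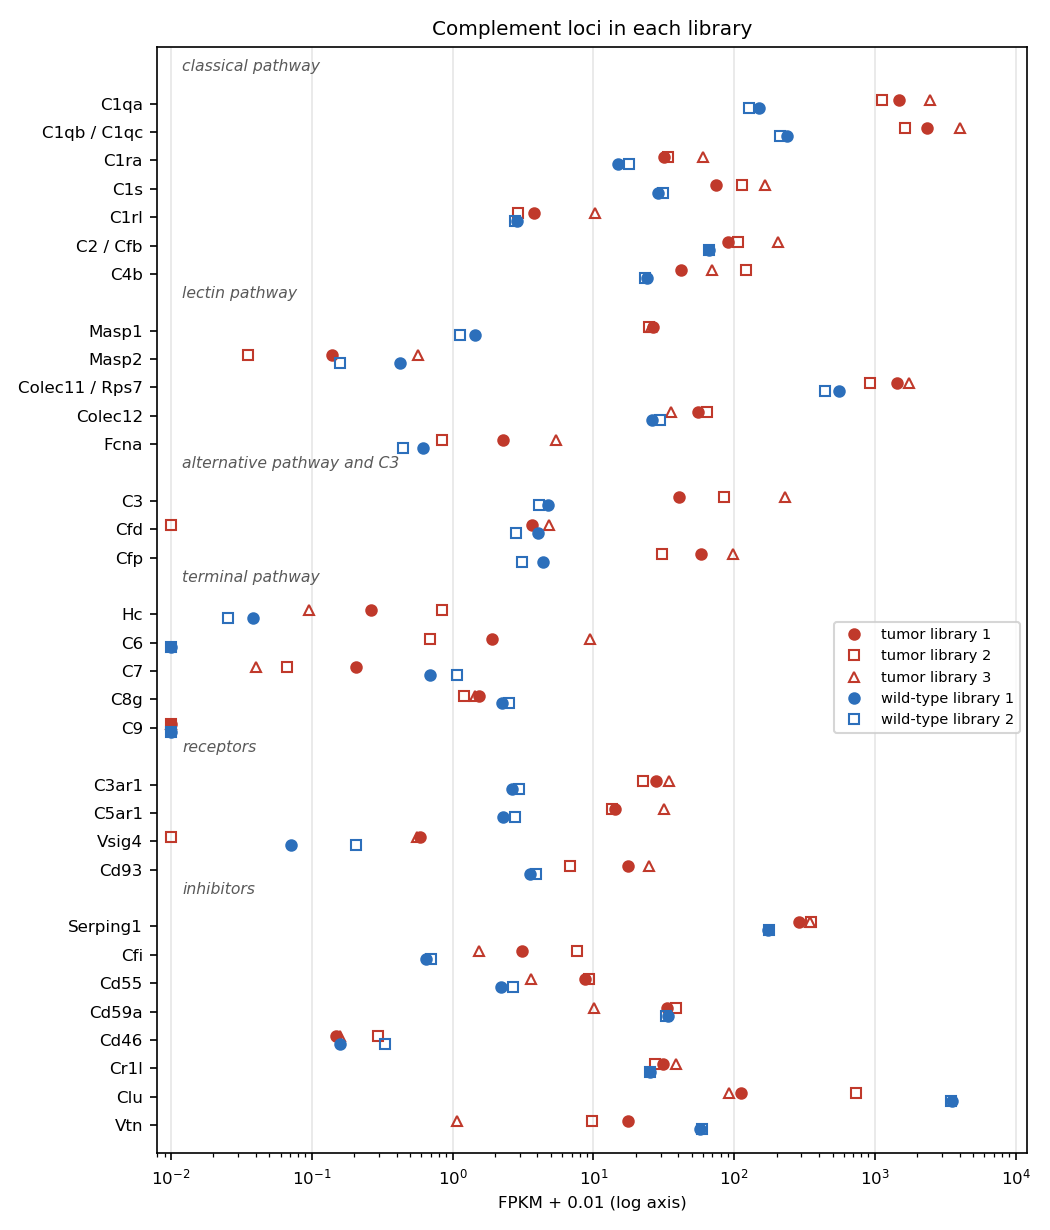
Level of each of the 32 complement loci in each library, grouped by role. The horizontal axis is FPKM plus 0.01 on a log scale, so a locus listed at 0 sits at 0.01, and each symbol is 1 library (red, above the line, tumor; blue, below it, wild type). The C2 and Cfb locus is drawn under the classical pathway. C1q, C3, Cfp, Masp1 and the receptors C3ar1 and C5ar1 sit to the right in all 3 tumor libraries, and Clu and Vtn to the left.

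All libraries were of like depth, with 12687703 to 14368272 fragments at named and unnamed loci. Lats1 had 3.43, 3.90 and 2.94 FPKM (fragments scaled for transcript length and depth) in the tumor libraries, against 7.55 and 8.86 FPKM in the wild-type libraries, and fell (edgeR adjusted p = 0.0115). Lats2 had 12.6, 17.0 and 14.3 FPKM in the tumor libraries, against 20.0 and 20.2 FPKM in the wild-type libraries (edgeR adjusted p = 0.0577). Reads outside the deleted exons remain in such a gene, so these levels check the genotype only in part. Pigment-cell, retinal pigment epithelium and photoreceptor genes marked the wild-type tissue. The lists summed, in that order, to 4.58 to 29.4, 226 to 248 and 1.26 to 4.85 FPKM in the tumor libraries, and to 6683 to 6910, 16556 to 16705 and 1041 to 1131 FPKM in the wild-type libraries. The pigment markers, which melanocytes carry, were thus near 0 in the tumors, and 8 of 8 fell. Most of the retinal pigment epithelium sum in the tumors came from a locus that Rdh5 shares with Bloc1s1. That joint locus had 228, 176 and 213 FPKM in the tumor libraries, against 2602 and 2365 FPKM in the wild-type libraries. Tumor library 1 stood apart in skeletal muscle genes, with a summed 6448 FPKM, against 349 and 420 FPKM in tumor libraries 2 and 3 and 442 to 462 FPKM in the wild-type libraries. The table does not state a strand setting, so reads of overlapping or antisense genes cannot be told apart. In bulk tissue, more cells of a type and more RNA per cell cannot be told apart either.

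The classical pathway rose at the top. Of its 7 loci, all tested, 4 rose and 3 did not pass, and the median log2 fold change was 1.75. The summed level was 4056, 3142 and 7026 FPKM in the tumor libraries, against 525 and 481 FPKM in the wild-type libraries, and the C1q loci made up most of it in every library.

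The C1q chains, which form the recognition molecule, lie side by side on chromosome 4 (mm10; C1qa at 136895917 to 136898803, minus strand, with 3 exons in its longest transcript by exon number). C1qa had 1480, 1116 and 2467 FPKM in the tumor libraries, against 151 and 127 FPKM in the wild-type libraries. Every tumor library stood far above both wild-type libraries. Its mean was 1688 ± 699 FPKM in tumors (SD, n = 3) and 139 ± 17.2 FPKM in wild type (SD, n = 2), 12.1 times as high in tumors, for a log2 fold change of 3.65 (SE 0.46, edgeR adjusted p = 0.00885). C1qb and C1qc share a locus in the table and cannot be separated. Their locus had 2334, 1648 and 4048 FPKM in the tumor libraries, against 237 and 212 FPKM in the wild-type libraries (log2 fold change 3.63, SE 0.51, edgeR adjusted p = 0.0105). The chains kept a near-constant proportion. The C1qb and C1qc locus stood at 1.58, 1.48 and 1.64 times the C1qa level in the tumor libraries and at 1.57 and 1.67 times in the wild-type libraries, so the groups overlapped in this ratio.

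The promoters of C1qb and C1qc are shown because these genes carry the largest complement signal of the tumors and their RefSeq promoters hold the same short match. PU.1 is the ETS-family factor that macrophages need, and its core was searched as AGGAAGT on both strands in the 250 bases before each gene's start (RefSeq, GRCm38.p6). The letters occur in 7.69% of all 32851 RefSeq mouse promoters searched and in 5 of the 24 member genes that had a promoter there (C1qb, C1qc, C5ar1, Fcna and Masp2). Both sequences run 5′ to 3′ on the minus strand, at chr4:136886201-136886450 for C1qb and chr4:136892915-136893164 for C1qc, and capitals mark the match, which here lies on the opposite strand as ACTTCCT.
C1qb: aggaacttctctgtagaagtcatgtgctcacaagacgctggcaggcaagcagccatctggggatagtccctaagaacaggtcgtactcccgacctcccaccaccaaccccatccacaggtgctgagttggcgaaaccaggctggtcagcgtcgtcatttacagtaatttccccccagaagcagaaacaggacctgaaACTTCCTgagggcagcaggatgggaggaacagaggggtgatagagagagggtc
C1qc: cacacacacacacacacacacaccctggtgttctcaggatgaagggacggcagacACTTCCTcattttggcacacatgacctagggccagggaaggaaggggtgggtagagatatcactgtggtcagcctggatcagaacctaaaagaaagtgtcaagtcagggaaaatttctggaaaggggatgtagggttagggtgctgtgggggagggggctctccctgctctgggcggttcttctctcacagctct
The match starts at position -53 in C1qb and at position -195 in C1qc, counted from the start of transcription. A match is a description of letters and not a measured binding site. C1qa had no promoter in the RefSeq table used.

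The C1 proteases, which cleave C4 and C2, also rose, with smaller log2 fold changes than C1q (the difference between genes was not tested). C1ra, the C1r protease, had 31.7, 34 and 60.1 FPKM in the tumor libraries, against 14.9 and 17.8 FPKM in the wild-type libraries (log2 fold change 1.41, SE 0.35, edgeR adjusted p = 0.036). C1s had 74.7, 114 and 166 FPKM in the tumor libraries, against 28.7 and 31.4 FPKM in the wild-type libraries (log2 fold change 2.02, SE 0.39, edgeR adjusted p = 0.0205). Neither gene overlapped between the groups, and tumor library 3 was the highest for both. Per unit of C1s, C1qa stood at 19.8, 9.78 and 14.9 in the tumor libraries and at 5.27 and 4.03 in the wild-type libraries, so the balance within C1 lay further toward C1q in every tumor library. Near-identical copies (C1rb, C1s2) can share reads with these genes.

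The remaining classical loci did not pass. The C2 and Cfb locus holds the protease of the classical C3 convertase and its alternative-pathway counterpart, neighbours on chromosome 17 that the table counts together. It had 89.7, 106 and 205 FPKM in the tumor libraries, against 66.2 and 66.8 FPKM in the wild-type libraries (log2 fold change 1.09, SE 0.42, edgeR adjusted p = 0.101). C4b, the C4 precursor whose cleavage product anchors that convertase, had 41.6, 121 and 69.1 FPKM in the tumor libraries, against 24.2 and 23.4 FPKM in the wild-type libraries (log2 fold change 1.75, SE 0.50, edgeR adjusted p = 0.0509). Groups did not overlap at either locus, and DESeq2 called both (adjusted p = 0.0489 for C2 and Cfb, 0.00315 for C4b). C4b also passed edgeR without tumor library 1 (adjusted p = 0.0293) or tumor library 2 (adjusted p = 0.0346), but not without tumor library 3 (adjusted p = 0.0762). Its locus in the table is wider than the gene and C4a is a near-identical copy. C1rl, a C1r-like protease, had 3.78, 2.92 and 10.2 FPKM in the tumor libraries, against 2.86 and 2.75 FPKM in the wild-type libraries (edgeR adjusted p = 0.238), a difference carried by tumor library 3.

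**Figure D2:**
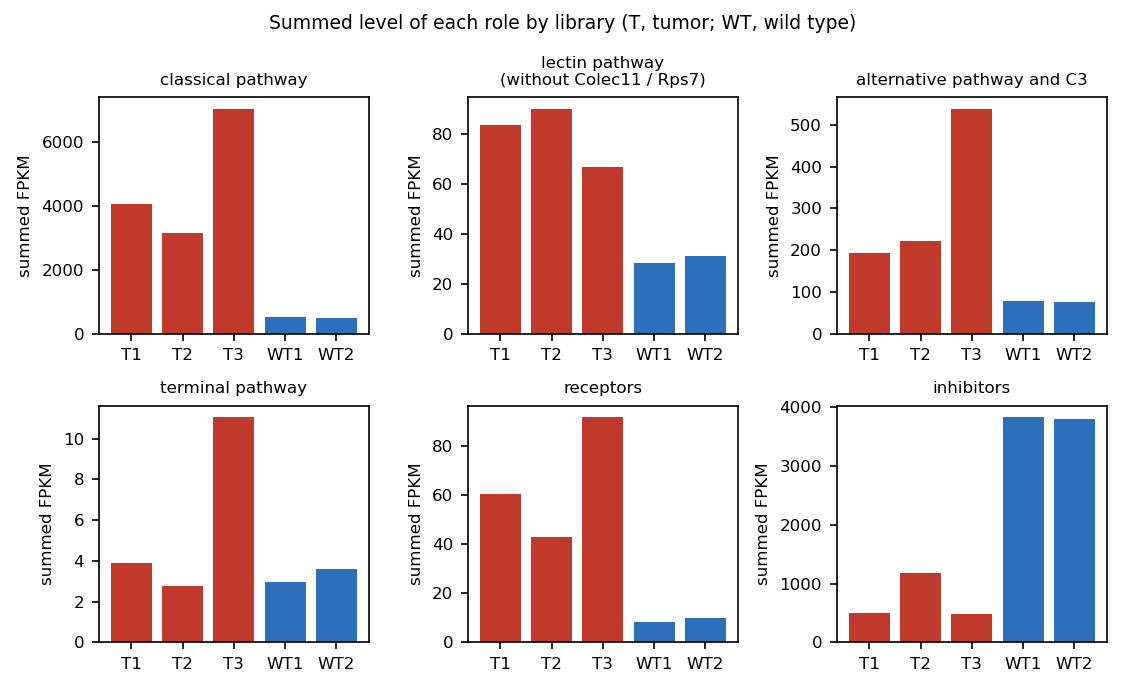
Summed FPKM of each role's loci by library (T1 to T3, tumor; WT1 and WT2, wild type), each panel with its own linear axis from 0 and each bar 1 library. The C2 and Cfb locus counts in both the classical and the alternative panel, and the Colec11 and Rps7 locus is left out of the lectin panel. Classical, lectin, alternative and receptor sums are higher in every tumor library, the terminal sums overlap and the inhibitor sums are lower.

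In the lectin pathway, Masp1 rose and Masp2 was too low to be tested. Of 5 loci, 4 were tested, 2 rose and 2 did not pass. Masp1, the protease bound to collectins and ficolins, had 26.4, 24.9 and 25.7 FPKM in the tumor libraries, against 1.42 and 1.11 FPKM in the wild-type libraries. It was the steadiest member that rose, with tumor libraries within 1.06 times of each other and 20.3 times as high a mean as in wild type. It rose by 4.38 on the log2 scale (SE 0.19, edgeR adjusted p = 0.00295), at 25.7 ± 0.717 FPKM in tumors (SD, n = 3) and 1.27 ± 0.218 FPKM in wild type (SD, n = 2). Unlike C1q and C3, Masp1 was not highest in tumor library 3. Part of its locus overlaps other transcripts on the opposite strand. Masp2, the protease that cleaves C4 and C2 in this route, had too few fragments to be tested, at 0.025 to 0.558 FPKM in the tumor libraries and 0.149 to 0.415 FPKM in the wild-type libraries.

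The pattern-recognition proteins of the lectin route were mixed. Colec12, a membrane collectin, had 55.1, 64.5 and 35.4 FPKM in the tumor libraries, against 26.0 and 29.7 FPKM in the wild-type libraries (log2 fold change 0.93, SE 0.31, edgeR adjusted p = 0.0726). Its groups did not overlap, and with 1 tumor library left out the edgeR adjusted p was 0.0163 (without library 3, the lowest) to 0.135. Fcna, ficolin A, had 2.28, 0.834 and 5.40 FPKM in the tumor libraries, against 0.603 and 0.433 FPKM in the wild-type libraries (log2 fold change 2.48, SE 0.93, edgeR adjusted p = 0.0974). Without tumor library 2 Fcna passed (edgeR adjusted p = 0.0282), and without tumor library 3 its log2 fold change was 1.61 (edgeR adjusted p = 0.132). Colec11, another collectin, shares its locus with Rps7, a ribosomal protein gene, so its own level cannot be given. That joint locus had 1425, 924 and 1733 FPKM in the tumor libraries, against 555 and 442 FPKM in the wild-type libraries, and rose (edgeR adjusted p = 0.0313, or 0.0643 without tumor library 1). Without that locus, the lectin loci summed to 83.9, 90.3 and 67.0 FPKM in the tumor libraries and to 28.4 and 31.4 FPKM in the wild-type libraries.

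C3 and properdin rose strongly, and factor D showed no such difference. Of the 4 loci of C3 and the alternative pathway, 2 rose and 2 did not pass. C3, on which all routes converge (chromosome 17, 57203970 to 57228136, minus strand, mm10), had 40.6, 84.6 and 230 FPKM in the tumor libraries, against 4.75 and 4.08 FPKM in the wild-type libraries. Even the lowest tumor library was above both wild-type libraries, while the tumor libraries ranged over 5.66 times. The mean was 118 ± 99.1 FPKM in tumors (SD, n = 3) and 4.42 ± 0.473 FPKM in wild type (SD, n = 2), 26.8 times as high in tumors (log2 fold change 4.79, SE 0.93, edgeR adjusted p = 0.0208). Without tumor library 3 the log2 fold change was 3.87 (edgeR adjusted p = 0.0105). Relative to the C2 and Cfb locus, C3 stood at 0.453, 0.799 and 1.12 in the tumor libraries, against 0.0718 and 0.0611 in the wild-type libraries.

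The C3 promoter is shown as that of the member with the largest ratio of means among those present in both groups. It runs 5′ to 3′ on the minus strand at chr17:57228137-57228386 (RefSeq, GRCm38.p6) and has no capitals, since none of 5 motifs searched was found: the interferon response element core, TTCNNNGAA for STAT sites, AGGAAGT for PU.1, TGANTCA for AP-1 and GGAATG for TEAD.
C3: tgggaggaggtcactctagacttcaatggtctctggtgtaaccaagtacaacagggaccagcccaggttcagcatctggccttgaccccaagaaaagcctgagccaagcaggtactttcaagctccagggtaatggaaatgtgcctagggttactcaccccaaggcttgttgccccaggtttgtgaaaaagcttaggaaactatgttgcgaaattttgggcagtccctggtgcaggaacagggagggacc
Both strands were searched, and the absence of these letters from this window says nothing about the factors. The interferon response element core occurs in 2.98% of all promoters and in 2 of the 24 member genes, TTCNNNGAA in 7.02% and 3, TGANTCA in 6.75% and 2, and GGAATG in 12.6% and 3 (C1ra, C1s and Vtn).

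Cfp, properdin, which stabilises the alternative convertase and is made by myeloid cells, had 58.3, 30.8 and 98.6 FPKM in the tumor libraries, against 4.40 and 3.10 FPKM in the wild-type libraries. All tumor libraries were above wild type, for a log2 fold change of 4.10 (SE 0.62, edgeR adjusted p = 0.0126). Cfd, factor D, the protease that cleaves factor B, had 3.63 and 4.81 FPKM in tumor libraries 1 and 3, was listed at 0 in tumor library 2, and had 4.05 and 2.80 FPKM in the wild-type libraries. Its groups overlapped (edgeR adjusted p = 0.909), and its locus in the table spans many neighbouring genes.

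The terminal pathway was low throughout and did not move together. Its 5 loci summed to 3.88, 2.76 and 11.0 FPKM in the tumor libraries, against 2.95 and 3.58 FPKM in the wild-type libraries. Of the 4 tested, 1 rose, 1 fell and 2 did not pass. C6, which joins the nascent membrane attack complex after C5b, had 1.91, 0.675 and 9.49 FPKM in the tumor libraries (67, 25 and 315 fragments) and was listed at 0 in both wild-type libraries. C6 rose (edgeR adjusted p = 0.0465 with all 5 libraries). Against a floor of 3 fragments per wild-type library it was at least 44.7-fold higher in tumors, or at least 14.5-fold without tumor library 3. The call was lost without tumor library 1 (edgeR adjusted p = 0.0884). C7, the next subunit to bind, moved the other way, with 0.196, 0.0569 and 0.0299 FPKM in the tumor libraries, against 0.683 and 1.06 FPKM in the wild-type libraries. It rests on 7, 2 and 1 fragments in the tumor libraries and 23 and 33 in the wild-type libraries (log2 fold change -3.09, SE 0.80, edgeR adjusted p = 0.041). The call was lost without tumor library 2 (edgeR adjusted p = 0.0638), and the log2 fold change was -4.15 without tumor library 1.

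The other terminal genes did not pass. Hc, the mouse gene for C5, had 0.254, 0.828 and 0.0857 FPKM in the tumor libraries, against 0.0284 and 0.0153 FPKM in the wild-type libraries (log2 fold change 4.09, SE 1.31, edgeR adjusted p = 0.0664, or 0.0302 without tumor library 3). C8g, a chain of C8, had 1.52, 1.20 and 1.44 FPKM in the tumor libraries, against 2.24 and 2.51 FPKM in the wild-type libraries (edgeR adjusted p = 0.19), and shares bases with Fbxw5. C9, the pore-forming subunit, was listed at 0 in all 5 libraries, which allows up to 3 fragments in each. Only the level of C6 in tumor library 3 exceeded 5 FPKM among these genes, whereas C3 upstream reached 230 FPKM in that library.

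All 3 tested receptor loci, of 4, rose, with a median log2 fold change of 3.02. C3ar1, the receptor of the C3a fragment on myeloid cells, had 28.1, 22.6 and 34.6 FPKM in the tumor libraries, against 2.61 and 2.96 FPKM in the wild-type libraries (log2 fold change 3.42, SE 0.25, edgeR adjusted p = 0.00415). C5ar1, the receptor of C5a, had 14.3, 13.6 and 31.6 FPKM in the tumor libraries, against 2.29 and 2.78 FPKM in the wild-type libraries (log2 fold change 3.02, SE 0.50, edgeR adjusted p = 0.0152). Both were well above wild type in every tumor library. Cd93, first described as a C1q receptor and present on endothelium and myeloid cells, had 17.6, 6.79 and 25.0 FPKM in the tumor libraries, against 3.52 and 3.87 FPKM in the wild-type libraries (ratio of means 4.45, edgeR adjusted p = 0.0444). It lost the call without tumor library 1 (edgeR adjusted p = 0.0915) or 3 (edgeR adjusted p = 0.0635). Vsig4, the C3b and iC3b receptor of resident macrophages, was too low to be tested, at 0.573, 0 and 0.55 FPKM in the tumor libraries and 0.0607 and 0.196 FPKM in the wild-type libraries.

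The promoters of C5ar1 and C3ar1 are shown because these receptors rose and each holds a match close to its start. Both run 5′ to 3′ on the minus strand (RefSeq, GRCm38.p6), C5ar1 at chr7:16259339-16259588 and C3ar1 at chr6:122856158-122856407. Capitals mark the PU.1 letters on the opposite strand in C5ar1, at positions -190 and -72, and the AP-1 letters in C3ar1, at position -22.
C5ar1: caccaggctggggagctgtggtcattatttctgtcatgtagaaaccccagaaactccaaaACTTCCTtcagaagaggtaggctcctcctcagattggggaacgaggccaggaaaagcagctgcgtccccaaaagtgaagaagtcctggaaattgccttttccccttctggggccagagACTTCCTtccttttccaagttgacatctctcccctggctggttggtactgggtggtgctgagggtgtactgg
C3ar1: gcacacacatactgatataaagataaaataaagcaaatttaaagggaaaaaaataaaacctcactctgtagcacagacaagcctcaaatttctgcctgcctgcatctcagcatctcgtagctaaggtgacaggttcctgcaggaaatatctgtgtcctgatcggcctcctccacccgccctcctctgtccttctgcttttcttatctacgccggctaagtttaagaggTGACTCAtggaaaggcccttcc
C5ar1 was the only member gene with 2 matches to AGGAAGT in the window searched.

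The inhibitors were split: Serping1 rose, Clu and Vtn stood lower in every tumor library, and the membrane inhibitors stood near or above wild type in most libraries. Of 8 loci, 7 were tested, 1 rose and 6 did not pass, with a median log2 fold change of 0.43. Serping1, the C1 inhibitor that inactivates C1r, C1s and the MASPs, had 289, 354 and 344 FPKM in the tumor libraries, against 175 and 176 FPKM in the wild-type libraries. Its groups were well separated, at 329 ± 34.9 FPKM in tumors (SD, n = 3) and 175 ± 0.908 FPKM in wild type (SD, n = 2), with a log2 fold change of 0.96 (SE 0.19, edgeR adjusted p = 0.0217). The C1ra and C1s log2 fold changes were larger, though the difference between genes was not tested. The Serping1 level per summed C1s and C1ra level was 2.72, 2.39 and 1.52 in the tumor libraries, against 4.01 and 3.57 in the wild-type libraries.

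Clu, clusterin, a chaperone that blocks assembly of the membrane attack complex, was the most abundant member in wild type. It had 112, 728 and 91.7 FPKM in the tumor libraries, against 3532 and 3497 FPKM in the wild-type libraries. All tumor libraries were far below wild type, with tumor library 2 apart from the other tumors. The difference was -3.45 on the log2 scale (SE 1.04, edgeR adjusted p = 0.0577), whereas it was -5.09 without tumor library 2 (edgeR adjusted p = 0.00369) and passed DESeq2 (adjusted p = 0.00111). Mean levels were 310 ± 362 FPKM in tumors (SD, n = 3) and 3514 ± 24.5 FPKM in wild type (SD, n = 2), 11.3 times as high in wild type. Vtn, vitronectin, which blocks membrane insertion of the complex, had 17.5, 9.74 and 1.07 FPKM in the tumor libraries, against 57.4 and 58.8 FPKM in the wild-type libraries (log2 fold change -2.57, SE 1.00, edgeR adjusted p = 0.105). It too had no overlap and passed DESeq2 (adjusted p = 0.0262). With 1 tumor library left out, its edgeR adjusted p was 0.0182 (without library 3) to 0.171 (without library 2), and its log2 fold change was -3.36 without tumor library 1.

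Most epithelial markers of the wild-type tissue stood lower in the tumors, as Clu and Vtn did. Pigment markers (8 of 8 fell) and photoreceptor markers (6 of 6 fell) did too, so lower levels were not particular to the epithelial lists. Of 8 markers of the retinal pigment epithelium 7 fell, and of 4 markers of the ciliary epithelium 2 fell. The retinal pigment epithelium markers had a median of 1.45, 3.72 and 1.46 log2 CPM in the tumor libraries, against 10.83 and 10.81 in the wild-type libraries. Ciliary epithelium markers had a median of 3.59, 5.57 and 2.91 log2 CPM in the tumor libraries, against 7.72 and 7.73 in the wild-type libraries. Tumor library 2 was the highest tumor library for both epithelial lists and for the pigment list, as it was for Clu, but not for Vtn or the photoreceptor list. The part of any of these cells in the Clu and Vtn levels was not tested.

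The remaining inhibitors did not pass or were not tested. Cd55, decay-accelerating factor, had 8.64, 9.23 and 3.62 FPKM in the tumor libraries, against 2.21 and 2.67 FPKM in the wild-type libraries (log2 fold change 1.72, SE 0.53, edgeR adjusted p = 0.0613, and 0.00811 to 0.124 with 1 tumor library left out). Cfi, factor I, the protease that inactivates C3b and C4b, had 3.08, 7.67 and 1.52 FPKM in the tumor libraries, against 0.637 and 0.687 FPKM in the wild-type libraries (log2 fold change 2.67, SE 0.82, edgeR adjusted p = 0.06). With 1 tumor library left out, Cfi had edgeR adjusted p-values of 0.0254 (without library 3) to 0.0931 (without library 1), and its log2 fold change was 1.82 without tumor library 2. Neither gene's groups overlapped, and tumor library 3, where C3 was highest, was the lowest tumor library for both. Cr1l, the mouse membrane regulator also called Crry, had 31.3, 27.5 and 38.8 FPKM in the tumor libraries, against 25.3 FPKM in each wild-type library (log2 fold change 0.43, SE 0.14, edgeR adjusted p = 0.0725). Cd59a, which blocks C9 insertion and has the related copy Cd59b, had 33.4, 38.5 and 10.1 FPKM in the tumor libraries, against 33.7 and 33.0 FPKM in the wild-type libraries. Its groups overlapped (log2 fold change -0.24, SE 0.57, edgeR adjusted p = 0.767). Cd46, which in mice is largely limited to the testis, was too low to be tested, at 0.14 to 0.283 FPKM in the tumor libraries and 0.148 to 0.319 FPKM in the wild-type libraries.

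The inhibitors were also compared by their summed level. All inhibitor loci summed to 495, 1175 and 490 FPKM in the tumor libraries, against 3826 and 3794 FPKM in the wild-type libraries. Clu was 22.6%, 62.0% and 18.7% of that sum in the tumor libraries and 92.3% and 92.2% in the wild-type libraries. Without Clu and Vtn, the inhibitors summed to 366, 437 and 398 FPKM in the tumor libraries, against 237 and 238 FPKM in the wild-type libraries. The sum without Clu and Vtn was thus higher in every tumor library, and the deficit of the whole group was that of this pair. Serping1 alone made up most of the sum without them in every library. It had 289, 354 and 344 FPKM in the tumor libraries, against 175 and 176 FPKM in the wild-type libraries. The membrane inhibitors Cr1l, Cd55 and Cd59a together had 73.4, 75.3 and 52.4 FPKM in the tumor libraries, against 61.2 and 61.0 FPKM in the wild-type libraries, and overlapped.

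**Figure D3:**
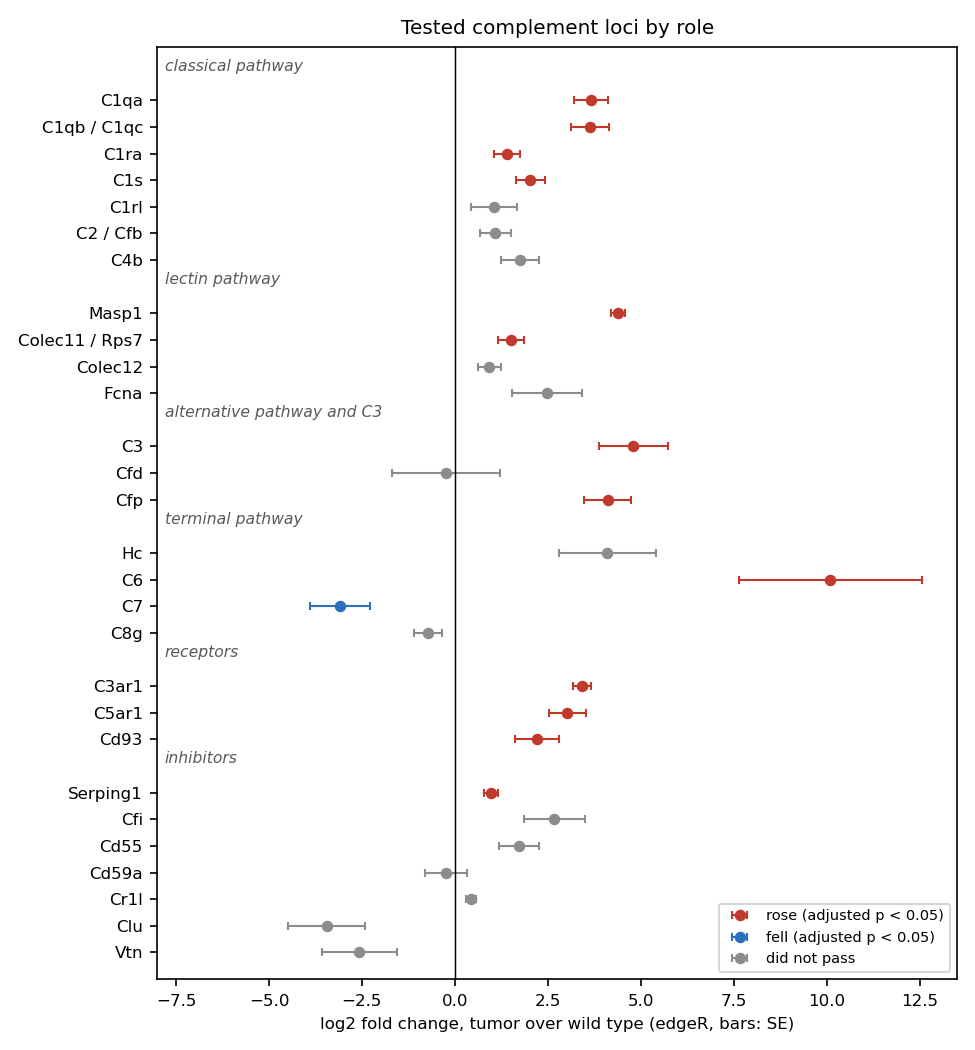
Log2 fold change of tumor over wild type for the 28 tested complement loci, grouped by role, from edgeR. Points are estimates and bars are 1 standard error (red, rose; blue, fell; grey, did not pass), with the line at 0 marking equal levels. The estimate for C6, which has no wild-type fragment, depends on a prior count and is no measure of its size. Masp1, C3ar1 and Serping1 have the narrowest bars among loci that rose.

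Most macrophage and lymphocyte markers rose in the tumors, as C1q, C3, Cfp and the tested receptors did, while neutrophil markers were mixed. Of 11 macrophage and monocyte markers 8 rose and none fell, and their summed level was 3263, 1702 and 8077 FPKM in the tumor libraries, against 512 and 553 FPKM in the wild-type libraries. Among lymphocyte markers (T, NK and B cells), 6 of the 9 tested loci rose, and the list of all 10 summed to 42.5, 34.1 and 84.5 FPKM in the tumor libraries, against 6.49 and 6.41 FPKM in the wild-type libraries. Of 14 interferon response genes 11 rose. These summed to 673, 921 and 1552 FPKM in the tumor libraries, against 211 and 197 FPKM in the wild-type libraries. Fibroblast markers, of which 3 of 7 rose, summed to 3300, 2362 and 4300 FPKM in the tumor libraries, against 1741 and 1936 FPKM in the wild-type libraries. The fibroblast sum is carried by the collagens Col1a1, Col1a2 and Col3a1. Dcn, which did not pass, had 809, 491 and 448 FPKM in the tumor libraries, against 1206 and 1373 FPKM in the wild-type libraries, and the median of the fibroblast list was lowest of the tumors in tumor library 3, at 10.46, 9.73 and 9.62 log2 CPM in the tumor libraries, against 7.92 and 8.08 in the wild-type libraries. Of 5 tested neutrophil markers, 2 rose (S100a8 and Csf3r) and 1 fell (Camp), and the list summed to 47.8, 63.4 and 44.5 FPKM in the tumor libraries, against 17.6 and 16.6 FPKM in the wild-type libraries. By sum, the macrophage, lymphocyte, interferon and fibroblast lists were highest in tumor library 3 and the neutrophil list in tumor library 2. Tumor library 3 was the highest tumor library at 11 of the 13 complement loci that rose. Of all loci that rose, tumor library 3 was the highest tumor library at 67.9%. The hepatocyte markers had no tested member. They summed to 1.50, 1.49 and 0.39 FPKM in the tumor libraries, against 2.04 and 1.73 FPKM in the wild-type libraries, with Fgb at 0 in all 5. These are RNA levels and do not measure complement protein brought by plasma.

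C1q did not keep a fixed proportion to the macrophage markers. The C1qa level per marker level was higher in every tumor library for 4 of the 11 markers, lower in every tumor library for another 4 and overlapped for 3. Per unit of Csf1r, the receptor that macrophages need to survive, C1qa stood at 9.36, 7.86 and 9.30 in the tumor libraries, against 1.76 and 1.31 in the wild-type libraries. Per unit of Fcgr1, a high-affinity antibody receptor, it stood at 32.3, 32.8 and 38.4 in the tumor libraries, against 79.4 and 67.3 in the wild-type libraries. Both ratios were well separated and pointed opposite ways, so the result depended on the marker. The Csf1r locus in the table is wider than the gene and may take in other sequence. The part of macrophage number in the rise of C1q was not tested.

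**Figure D4:**
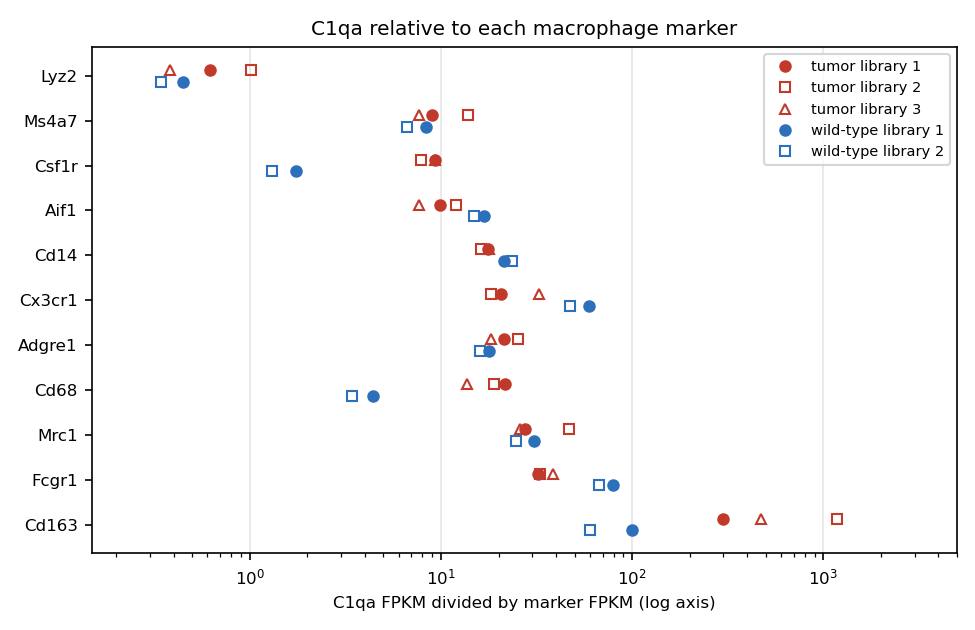
C1qa FPKM divided by the FPKM of each of 11 macrophage and monocyte markers, on a log axis, in each library (red, above the line, tumor; blue, below it, wild type). The ratio is higher in every tumor library for Csf1r, Adgre1, Cd68 and Cd163 and lower in every tumor library for Aif1, Cd14, Cx3cr1 and Fcgr1.

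Other genes of the pathway were taken from a list of 30, of which 28 were found and 13 had enough fragments to be tested. Of these, 6 rose and 1 fell. Ptx3, a long pentraxin that binds C1q, had 108, 114 and 406 FPKM in the tumor libraries, against 2.97 and 3.25 FPKM in the wild-type libraries (log2 fold change 6.60, SE 0.93, edgeR adjusted p = 0.0107). The ratio of means was 67.4, above that of any of the 34 genes with fragments in both groups. The Ptx3 locus in the table is much wider than the gene and may take in other sequence, so these values are those of the locus. Itgam and Itgb2, the chains of complement receptor CR3, both rose. Itgam had 18.6, 18.2 and 37.2 FPKM in the tumor libraries, against 5.37 and 5.77 FPKM in the wild-type libraries (edgeR adjusted p = 0.0185). Itgb2 had 36.1, 30.4 and 110 FPKM in the tumor libraries, against 6.42 and 6.12 FPKM in the wild-type libraries (edgeR adjusted p = 0.0276). All of these were higher in every tumor library, and Ptx3, Itgam and Itgb2 were highest in tumor library 3.

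Another 3 genes, at lower levels, of that list rose too. C5ar2, the second C5a receptor, had 3.14, 2.36 and 3.69 FPKM in the tumor libraries, against 0.323 and 0.273 FPKM in the wild-type libraries (edgeR adjusted p = 0.00712). C4a, the near-identical copy of C4b, had 0.408, 1.13 and 0.566 FPKM in the tumor libraries, against 0.0865 and 0.0622 FPKM in the wild-type libraries (edgeR adjusted p = 0.0238). The order of the tumor libraries was the same for C4a as for C4b. Csmd1, a large membrane protein with complement control domains, had 0.803, 2.62 and 0.67 FPKM in the tumor libraries, against 0.111 and 0.125 FPKM in the wild-type libraries (edgeR adjusted p = 0.0291). Cpn1, a chain of the carboxypeptidase that trims C3a and C5a, fell, with 0, 0 and 0.0473 FPKM in the tumor libraries, against 1.64 and 1.52 FPKM in the wild-type libraries (edgeR adjusted p = 0.0121).

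Some genes of that list did not pass. C1qbp, a mitochondrial protein named for binding C1q, had 51.0, 39.4 and 61.4 FPKM in the tumor libraries, against 55.0 and 50.8 FPKM in the wild-type libraries, and overlapped (edgeR adjusted p = 0.962). Itgax, a chain of complement receptor CR4, had 8.61, 16.1 and 44.2 FPKM in the tumor libraries, against 2.91 and 3.29 FPKM in the wild-type libraries (edgeR adjusted p = 0.0612). The 7 genes Mbl1, Fcnb, C8b, Crp, Apcs, Cpn2 and Cd55b were listed at 0 in all 5 libraries.

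The edgeR calls above rest on both wild-type libraries. With either of them left out, a lone wild-type library remained, and edgeR called no locus of the whole table and so none of the 34 genes. The fold changes themselves stayed close. C1qa had a log2 fold change of 3.73 without wild-type library 1 and 3.48 without wild-type library 2, Masp1 had 4.52 and 4.17, and C3 had 4.84 and 4.62.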

How the data were processed

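RNA was sequenced from 3 eye tumor libraries and 2 wild-type uveal libraries. The tools named are TopHat2 (2.0.9), Cufflinks (2.2.1) and Cuffdiff, with build mm10, per the submitters' processing notes. Which tool did what, which annotation was used and whether strand was counted is not given in the sources used here. The deposited table gives, per the file headers, an estimated count of fragments per locus and an FPKM scaled by the authors. Groups were read from the condition names of that table. Replicate numbers there start at 0, are not tied to those of the labels and only name libraries.

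Estimated counts (96.8% to 97.1% whole per library) were rounded. Loci without a gene name, 1.52% to 4.37% of fragments, were left out. edgeR 4.0.16 under R 4.3.3 tested tumors against wild type in a fit of the 5 libraries, with filterByExpr at a minimum count of 10, TMM scaling and the two-sided quasi-likelihood F-test, adjusted by Benjamini-Hochberg over 15241 loci. "Rose" and "fell" mean an adjusted p under 0.05. The SE was taken as the log2 fold change over the root of the F statistic. Levels are FPKM. Floors of 3 counts cover counting error only. Genes in 1 locus share its values. Alternatives were DESeq2 1.42.0, limma 3.58.1 on log2(FPKM + 1) or log2(FPKM + 0.1), other scalings, no filter, each library left out and a replicate block. The test was checked on simulated counts that share a single dispersion over all loci. That check does not cover loci as variable among the tumor libraries as C3 or Clu.

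The members, gene lists and motifs were chosen with earlier results of these data known. All 34 members are described, with library values where a group mean reached 5 FPKM or the test was passed and for some below that, and other pathway genes where they passed or a mean reached 10 FPKM. Promoters are RefSeq's, GRCm38.p6, for 24 of 34 genes. Gene coordinates are from GENCODE on the same build. No amino acid sequence was used here. Some genes of the fixed lists are not reported here and were left out of the lists' counts and sums.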

Additional observations from a re-analysis of the deposited data

How the results depend on the processing

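With 3 tumor and 2 wild-type libraries, the wild-type spread rests on a single pair, and low loci such as C6, C7 and Hc rest on few fragments. The count of member loci higher in tumors was 13 in the edgeR test and 11 to 14 under other scalings, no filter, FPKM with limma and a replicate block, 20 with DESeq2, and 0 to 16 with 1 library left out. The count lower was 1, with 3 in DESeq2, 2 with limma on log2(FPKM + 1) or log2(FPKM + 0.1), and 0 to 2 with 1 library left out. Of the other pathway genes, 6 were higher (0 to 8 with 1 library left out) and 1 lower (0 to 3). Over all loci, 2852 were higher (0 to 3032) and 2349 lower (0 to 3112). Each 0 came from leaving out a wild-type library, where the lone library is assumed to vary like the tumors. DESeq2 was not run there. The replicate numbers did not pair the libraries (r of deviations 0.01 and 0.03 for numbers 1 and 2). Only tumor library 3 bore the number 3, so in a replicate block it has no partner. The fold changes of that fit rest on the libraries numbered 1 and 2, much as when tumor library 3 is left out. With them as a replicate block, 1706 loci were higher and 1361 lower, 14 member loci were higher and 1 lower, and 0 other pathway genes were lower; the calls of C7 (adjusted p = 0.117), Cd93 (0.0961) and Serping1 (0.0566) were lost and Colec12, Cfi, Cd55 and Vtn passed. Cd93 also missed the threshold in all 3 limma settings (adjusted p 0.0575 to 0.075), and C6 on log2(FPKM + 1) (0.148, or 0.121 with the filter at 1 FPKM). The sign turned for Cfd without tumor library 2, where it was listed at 0 (log2 fold changes of -0.87 to 0.31 with 1 library left out). For Cd59a it turned without tumor library 3, its lowest tumor library (-0.59 to 0.15). It also turned with the replicate block (0.16), whose fold change does not draw on that library. None of these values passed the threshold, and why those libraries were low was not tested. Of 360 values of single loci under the alternatives, 290 kept direction and call, 41 lost the call, 26 gained it and 3 turned sign.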
